A study of Mus musculus with 92 samples.

Results

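Cxcl9, Cxcl10 and Cxcl11 encode the 3 chemokines that bind the receptor CXCR3. They were chosen by name for their measured levels in these data, in ER-Hoxb8 cells taken back from mouse brain and in macrophages labelled Adar KO, and they are 3 of the 29956 named genes in the count table. Because the same values chose them, comparisons of those cells are given as a description: no p is given for the genes there, and where their count under a rule is set beside that of all genes, nothing is read from it.

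Interferon-induced chemokines of this family draw CXCR3-bearing T and NK cells toward the cell that secretes them. Cxcl9 is induced chiefly by interferon gamma, whereas Cxcl10 and Cxcl11 also answer type I interferon. The protease DPP4 trims the ligands, the atypical receptors ACKR3 and ACKR1 bind some of them without classical signalling, and the RNA-editing enzyme ADAR1 keeps cellular double-stranded RNA from the sensor MDA5, whose signal leads to interferon.

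RNA sequencing of mouse cells gave 92 libraries in 25 groups. The study made myeloid progenitors that grow while an estrogen-regulated Hoxb8 is active (ER-Hoxb8 cells) and matured them to macrophages, either in the dish or in the brains of mice lacking Csf1r. It then disrupted Adar in such cells with Cas9 and gave macrophages baricitinib, a Janus kinase inhibitor.

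The bone marrow groups were progenitors, monocytes and macrophages grown for 7 days with M-CSF from FVB wild-type mice, with 3 libraries each. ER-Hoxb8 cells came from a FVB mouse heterozygous for Cas9 and were kept as progenitors in beta-estradiol with GM-CSF. The study matured them to macrophages in the same M-CSF medium as the bone marrow macrophages. They were sampled on day 0, day 4 and day 7 of maturation with 3 libraries each. Microglia-like cells (MLCs), recovered from Csf1r KO brain by sorting, came from injected bone marrow (6 libraries) or injected ER-Hoxb8 cells (6 libraries), both labelled as wild-type donors. The host lacks Csf1r and with it most microglia of its own, and it received the cells as a neonate. Microglia of uninjected FVB wild-type mice gave 9 libraries. The labels give no ages for the animals.

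The Adar groups were ER-Hoxb8 cells heterozygous for Cas9 with a non-targeting control guide (NTC, 3 progenitor and 3 macrophage libraries), Adar guide sgRNA 1 (3 and 3) or Adar guide sgRNA 2 (3 and 5). Baricitinib was given for 7 days to macrophages with NTC (3, 3, 4, 4 and 3 libraries) or with sgRNA 1 (labelled Adar KO, 3, 3, 3, 3 and 4 libraries). The sample titles give the doses as 0, 0.0006, 0.016, 0.4 and 10 µM, whereas the treatment protocol gives 0, 0.00064, 0.16, 0.4 and 10 µM. Doses are named here as in the titles, so the true size of the 0.016 µM dose is uncertain.

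Values are log2 CPM (read counts scaled to the size of the library), normalised by the authors in separate sets. The lowest value of a library shows its set, and it gave 6 sets with minima of −4.34, −3.62, −3.43, −3.09, −3.56 and −2.78. Comparisons were made only within a set. Cells from brain share a set with wild-type and day 7 ER-Hoxb8 macrophages, but sgRNA 2 cells share none with NTC cells, so no comparison of sgRNA 2 with NTC is given. Depth ran from 6.2 M to 52.1 M estimated counts per library (M, mega), and set means ran from 13.7 M under baricitinib to 43.0 M in the bone marrow set. A gene with 3 counts would read between −3.23 and −0.67 log2 CPM depending on the library, and values at or under that floor are read as not detected. These floors cover counting error only.

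Macrophage markers (Csf1r, Emr1, Cd68, Itgam, Fcgr1, Mertk and Aif1) were all above 1 CPM in every macrophage, MLC and microglia library. The defining microglial gene Sall1 averaged 8.60 log2 CPM in microglia, −0.21 in bone marrow MLCs and 0.91 in ER-Hoxb8 MLCs, so the MLCs largely lacked it. Adar RNA was no lower with sgRNA 1 in macrophages. Its log2 CPM was 6.96, 7.15 and 7.01 in sgRNA 1 macrophages and 5.73 and 5.67 in the NTC macrophages of that set, so the RNA level of Adar does not check the labels.

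Some libraries stood apart. In the KO macrophages at 0.4 µM, replicate 2 read 9.13 log2 CPM for Cxcl10 beside 0.01 and 0.41 in the other replicates. It also read 6.02 log2 CPM for Ifnb1, against −2.78 and −2.29. Member results that it touches are given with and without it. NTC macrophage replicate 2 has a set of its own (minimum −3.09) and entered comparisons only as an alternative. ER-Hoxb8 MLC replicates 3 and 6 held the largest sums of T and NK cell markers, and results for that group are also given without them. The library names of ER-Hoxb8 MLCs form 2 series, GFPHox (replicates 1 to 3) and WTHox (replicates 4 to 6), which are given separately where that group is described.

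The 3 genes lie next to each other on chromosome 5 in the RefSeq table, and Art3 spans Cxcl10 and Cxcl11. That table, made for strain C57BL/6J, lists Cxcl11 as a transcribed pseudogene, whereas the cells here are FVB. Promoters (250 bases before to 50 after the start of transcription) were at hand from RefSeq for 2 of the 3 genes. They are shown because Cxcl9 and Cxcl10 were both far higher in the ER-Hoxb8 cells from brain than in every other group measured with them. The Cxcl9 stretch is chr5:92328030-92328329 and the Cxcl10 stretch is chr5:92348840-92349139, both on the minus strand of GRCm38.p6 and written 5′ to 3′. Both strands were searched for the core of an interferon-stimulated response element (GAAANNGAAA) and for an NF-kB motif (GGGANNNNCC), and capitals mark each match.
Cxcl9: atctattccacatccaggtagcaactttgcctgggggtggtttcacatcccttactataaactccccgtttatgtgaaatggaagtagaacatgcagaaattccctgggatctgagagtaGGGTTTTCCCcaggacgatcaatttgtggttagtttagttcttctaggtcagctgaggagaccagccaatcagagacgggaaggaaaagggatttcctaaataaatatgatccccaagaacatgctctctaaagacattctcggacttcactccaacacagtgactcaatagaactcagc
Cxcl10: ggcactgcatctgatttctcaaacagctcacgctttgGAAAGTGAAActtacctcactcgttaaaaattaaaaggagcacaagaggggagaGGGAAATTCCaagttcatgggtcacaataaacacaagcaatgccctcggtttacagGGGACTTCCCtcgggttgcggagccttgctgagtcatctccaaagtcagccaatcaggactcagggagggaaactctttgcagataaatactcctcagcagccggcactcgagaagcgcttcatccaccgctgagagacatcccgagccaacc

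The Cxcl10 promoter held GAAAGTGAAA starting 213 bases before the start site, GGGAAATTCC at 159 bases and GGGACTTCCC at 103 bases. The Cxcl9 promoter held 1 NF-kB match, GGGTTTTCCC read on the opposite strand, at 130 bases, and no response element core. Of 32851 RefSeq mouse promoters of this length, 3.44% held the response element core and 20.7% the NF-kB letters. A match describes the letters only.

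In bone marrow and immature ER-Hoxb8 cells all 3 genes were low, and the question was how far progenitors differ from their matured or immortalised counterparts. Cxcl10 read −1.02, −0.13 and −0.98 log2 CPM in bone marrow progenitors. Monocytes read 1.31, 1.44 and 1.57 for the same gene. Every monocyte library was above every progenitor library.

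ER-Hoxb8 cells on day 0 read 0.87, −1.39 and 3.19 log2 CPM for Cxcl10, and −1.18, −0.52 and 1.71 on day 4. Replicate 3 was the highest in both, and the wide spread made these groups overlap each other and their neighbours. By mean the order was monocytes at 1.44, day 0 at 0.89, day 4 at 0.01 and progenitors at −0.71, and each overlapped the next. Cxcl9 ran from −4.34 to −0.70 and Cxcl11 from −3.83 to −0.52 over the 12 libraries of this set. Each was at its floor in several libraries, and only Cxcl10 passed the expression filter.

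Cxcl10 was 2.15 log2 units higher in monocytes than in progenitors (SE 1.02, limma with Benjamini-Hochberg adjusted p 0.18), with 3 of 3 monocyte libraries above all progenitors. It did not meet the rule for a differentially expressed gene (DEG: a log2 fold change of 2 or more, up or down, with an adjusted p below 0.05), which 6.84% of the 12056 genes tested met, so 0 of 1 member tested was called. Day 0 ER-Hoxb8 cells stood 1.60 above progenitors (SE 1.02, limma adjusted p 0.282 after Benjamini-Hochberg), with 2 of 3 libraries above all progenitors. There 0 of 1 member was called beside 15.3% of genes. Downward, 6 of 6 T cell, 6 of 6 NK cell, 4 of 4 neutrophil and 3 of 4 endothelium markers tested met the rule. Upward, 4 of 7 macrophage markers did, and the part of these markers was not tested. The Cxcl10 difference turned on single libraries. Without day 0 replicate 2 it was 2.74 with a limma Benjamini-Hochberg adjusted p of 0.0383, and without day 0 replicate 3 it was 0.45. The limma Benjamini-Hochberg adjusted p ran from 0.0383 to 0.728 over the alternatives. From day 0 to day 4 Cxcl10 fell by 0.89 (SE 1.02, limma Benjamini-Hochberg adjusted p 0.788), and 2 of 3 replicates were lower on day 4. The difference turned to 0.26 without day 0 replicate 3. In that comparison limma called 0 of all genes (0%), although 1129 had an unadjusted p below 0.05, and 738 genes were called without day 0 replicate 2. Day 0 and day 4 libraries of the same number deviated together (correlations of 0.23, 0.37 and 0.43), and the fit did not use that pairing. With a block for replicate number limma also called 0 genes. All p-values measure the spread between libraries, and the labels do not say what separates one replicate from another. The study describes the bone marrow and ER-Hoxb8 libraries of days 0 to 7 as biological replicates, with several independently made ER-Hoxb8 lines. For the baricitinib cultures it describes replicates that were differentiated independently from guide-transduced cells. Whether replicates in the other Adar groups are separate lines is not stated.

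Macrophages matured in the dish held little of any ligand. In bone marrow macrophages Cxcl9 read −2.39, −3.62 and −3.62 log2 CPM, Cxcl10 −0.97, −1.74 and 0.11, and Cxcl11 −1.34, −2.53 and −1.86. In day 7 ER-Hoxb8 macrophages Cxcl9 read −2.31, −2.52 and −1.78, Cxcl10 −0.70, −1.10 and −3.62, and Cxcl11 −2.76, −2.51 and −3.04. Every bone marrow macrophage library was at or under its floor for Cxcl9, the ER-Hoxb8 macrophages were just above theirs, and for Cxcl10 the groups overlapped.

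Microglia held modest levels. Their 9 libraries ran from −1.55 through a median of 1.42 to 2.81 for Cxcl9. Cxcl10 ran from −1.66 through −0.27 to 0.92, and Cxcl11 from −1.44 through −0.55 to 0.68. Cxcl9 varied most among microglia, and replicates 8 and 9, whose library names differ from the rest, were its lowest.

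Bone marrow MLCs lay near microglia. Cxcl9 ran from −0.60 through a median of 1.01 to 1.88 in 6 libraries. Cxcl10 ran from −1.95 through 0.37 to 0.57 and Cxcl11 from −1.83 through −1.28 to −0.09. For each gene these ranges overlapped those of microglia, and for Cxcl9 they lay wholly above those of bone marrow macrophages.

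ER-Hoxb8 MLCs held far more of all 3. Cxcl9, the ligand most tied to interferon gamma, read 10.65, 10.05 and 11.72 log2 CPM in the GFPHox series and 7.50, 10.31 and 9.65 in the WTHox series. Cxcl10 read 9.53, 8.08 and 9.09, then 6.13, 8.00 and 7.65. Cxcl11 read 7.93, 6.19 and 7.95, then 1.08, 6.44 and 7.11. Every one of these 6 libraries was above every other library of the set for every ligand, and replicate 4 was the lowest for all 3. These levels chose the genes, and the share of all genes that separate in this way is not given, so nothing is read from the separation.

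**Figure D1:**
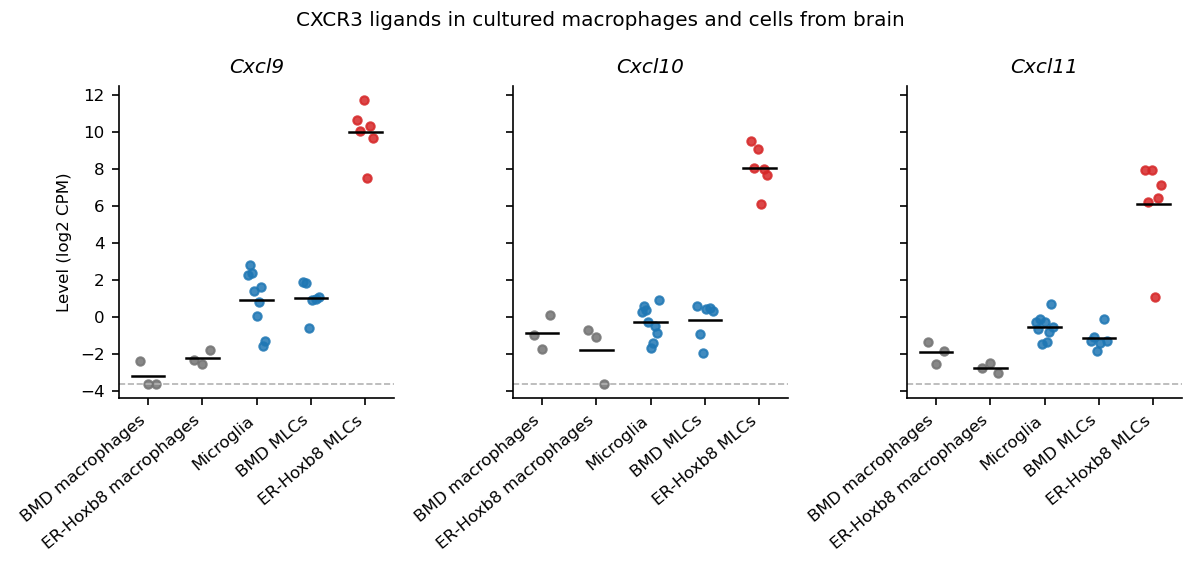
Log2 CPM of Cxcl9, Cxcl10 and Cxcl11 in bone marrow macrophages, ER-Hoxb8 macrophages, microglia, bone marrow MLCs and ER-Hoxb8 MLCs, with 1 point a library, a black line at the group mean and a dashed line at the lowest value of the set. ER-Hoxb8 MLCs average 9.98, 8.08 and 6.12, and no library of another group reaches them.

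The order for Cxcl9 was ER-Hoxb8 MLCs at a mean of 9.98, bone marrow MLCs at 1.01, microglia at 0.95, ER-Hoxb8 macrophages at −2.20 and bone marrow macrophages at −3.21. Bone marrow MLCs overlapped microglia and the 2 macrophage groups overlapped each other, whereas the other neighbours did not overlap. For Cxcl10 the means were 8.08, −0.18 (bone marrow MLCs), −0.29 (microglia), −0.87 (bone marrow macrophages) and −1.81 (ER-Hoxb8 macrophages), and only the step below ER-Hoxb8 MLCs was free of overlap. For Cxcl11 the means were 6.12, −0.53 (microglia), −1.15 (bone marrow MLCs), −1.91 (bone marrow macrophages) and −2.77 (ER-Hoxb8 macrophages), again with a gap only below ER-Hoxb8 MLCs.

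All 3 members passed the filter in this set, but Cxcl11 did so only through the ER-Hoxb8 MLCs and 1 microglia library. ER-Hoxb8 MLCs exceeded bone marrow MLCs by 8.97 log2 units for Cxcl9 (SE 0.71), 8.26 for Cxcl10 (SE 0.63) and 7.27 for Cxcl11 (SE 0.76). The DEG rule took in 3 of 3 members and 6.56% of the 12518 genes fitted, and since these levels chose the members nothing is read from that count. Against microglia the differences were 9.03 (SE 0.65), 8.36 (SE 0.57) and 6.64 (SE 0.69), with 3 of 3 members and 16.3% of genes within the rule. Against ER-Hoxb8 macrophages in the dish they were 12.18 (SE 0.87), 9.88 (SE 0.77) and 8.89 (SE 0.93), with 3 of 3 members and 19.3% of genes. Of the 3 ER-Hoxb8 macrophage libraries, 1 was at its floor for Cxcl10 and 2 for Cxcl11, so the sizes of those 2 differences rest in part on values read as not detected. These comparisons share the ER-Hoxb8 MLC libraries. In bulk RNA, more cells that express a gene and more RNA per cell cannot be told apart.

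The step was present in both series of library names. Against bone marrow MLCs the GFPHox libraries alone stood higher by 9.79, 9.08 and 8.51 for Cxcl9, Cxcl10 and Cxcl11, and the WTHox libraries alone by 8.14, 7.43 and 6.03. Both series therefore held all 3 ligands above every bone marrow MLC library, which describes levels that chose the genes.

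Bone marrow MLCs were then compared with bone marrow macrophages, a contrast that did not choose the genes. Cxcl9 was 4.22 log2 units higher in the MLCs (SE 0.87, limma Benjamini-Hochberg adjusted p 0.000733, range 0.000124 to 0.059 over the alternatives), with 6 of 6 MLC libraries above all 3 macrophage libraries. The macrophages were at or under their floor, so the rise was at least 16.1-fold, and on a log2(CPM+1) scale it was 1.56 and no longer met the rule. Cxcl10 differed by 0.69 (SE 0.77, limma Benjamini-Hochberg adjusted p 0.522) and Cxcl11 by 0.76 (SE 0.93), with overlap in both. No p is given for Cxcl11, which had no library above 1 CPM in either group. Thus 1 of 3 members was called beside 15.9% of genes, and nothing is read from Cxcl11 in that count.

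Bone marrow MLCs did not differ from microglia in any ligand beyond the spread. The differences were 0.07 for Cxcl9 (SE 0.65), 0.11 for Cxcl10 (SE 0.57) and −0.62 for Cxcl11 (SE 0.69). Limma with Benjamini-Hochberg gave adjusted p of 0.961 and 0.931 for Cxcl9 and Cxcl10. No p is given for Cxcl11, which passed the filter only through the ER-Hoxb8 MLCs and 1 microglia library. So 0 of 3 members were called beside 10.7% of genes, and nothing is read from Cxcl11 in that count. ER-Hoxb8 macrophages differed from bone marrow macrophages by a fitted 1.00 for Cxcl9 (SE 1.01). All 3 bone marrow libraries were at or under their floor there, so the level was at least 1.01-fold higher. Cxcl10 differed by −0.94 (SE 0.89), or −0.03 without ER-Hoxb8 macrophage replicate 3, and Cxcl11 by −0.86 (SE 1.07). No p is given for these, since no library of either group was above 1 CPM for any ligand. All 3 passed the filter through cells from brain. There 0 of 3 members were called beside 1.85% of genes, and nothing is read from that count.

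Markers of T and NK cells, the cells that CXCR3 ligands attract, also differed among MLC libraries. In ER-Hoxb8 MLCs the 7 T cell markers (Cd3e, Cd3d, Cd3g, Cd2, Cd5, Cd8a and Lck) summed to 34.9, 52.2, 290, 68.5, 119 and 301 CPM by replicate, led by Cd3g or Cd3d, with no T cell marker at the lowest value except 1 in replicate 5. The 6 NK cell markers summed to 52.6, 55.8, 233, 8.41, 32.8 and 1150 CPM, led by Nkg7, Gzmb or Gzma, with 1 marker at the lowest value in replicates 1 and 2. In bone marrow MLCs the T cell sums were 9.22, 7.16, 102, 60.5, 56.9 and 48.2 CPM and the NK cell sums 8.94, 8.21, 20.7, 8.97, 11.8 and 5.02 CPM, led by Cd3d and, in all but replicate 2, by Nkg7. The sums were highest in ER-Hoxb8 MLC replicates 3 and 6.

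Between ER-Hoxb8 and bone marrow MLCs, 5 of 7 T cell markers and 2 of 5 tested NK cell markers met the DEG rule upward. Without replicates 3 and 6, limma called 0 of 7 T cell markers (4 had an unadjusted p below 0.05) and 1 of 5 NK cell markers, and the ligands stood 8.62, 8.11 and 6.56 log2 units above bone marrow MLCs. Against microglia the ligands then stood 8.68, 8.22 and 5.94 higher, and 3 of 7 T cell and 1 of 5 NK cell markers were still called upward. Against ER-Hoxb8 macrophages they stood 11.83, 9.74 and 8.18 higher, and 5 of 7 T cell and 4 of 5 NK cell markers were still called upward. In the remaining 4 libraries all 3 ligands were above every library of the other groups, again a description of levels that chose the genes. Lymphocyte markers were still present. For these libraries the study refers to a gate on live, single leukocytes with GFP, drawn for its flow histograms, and the markers were measured in the sorted cells. This choice of libraries was made after the values were seen, and the part of the remaining lymphocyte RNA was not tested.

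Ifng, which encodes interferon gamma, was highest in the libraries with the most lymphocyte markers. It read 1.39, −1.03, 6.73, −1.86, −3.62 and 6.29 log2 CPM in ER-Hoxb8 MLC replicates 1 to 6, so replicates 3 and 6 were high and replicate 5, with Cxcl9 at 10.31, was at the lowest value. Ifnb1 read −0.11 and 0.36 in replicates 1 and 3 and −3.62 in the other 4. Gbp2, an interferon-induced guanylate-binding protein, read 11.18, 10.34, 10.91, 7.44, 9.32 and 11.38, and like the ligands it was lowest in replicate 4.

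**Figure D2:**
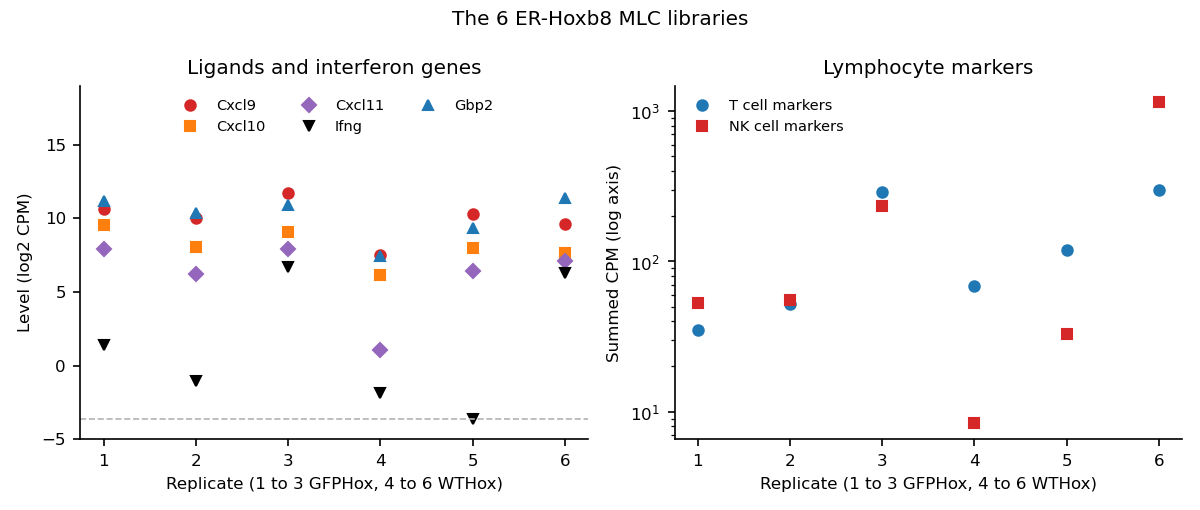
ER-Hoxb8 MLC libraries by replicate, with log2 CPM of Cxcl9, Cxcl10, Cxcl11, Ifng and Gbp2 on the left and summed CPM of T and NK cell markers on a log axis on the right. Ifng ranges from −3.62 to 6.73 while Cxcl9 stays at or above 7.50.

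The cells differed in other markers too. Neutrophil markers summed to 638, 198, 269, 15001, 34513 and 2912 CPM in ER-Hoxb8 MLC replicates 1 to 6 and to between 3623 and 26744 CPM in bone marrow MLCs, led by Ngp in all but ER-Hoxb8 MLC replicate 6, where S100a8 led, and no neutrophil marker was at the lowest value. Replicates 1 to 3 had both the lowest neutrophil sums and the most Cxcl10 of the 6, and replicates 4 and 5 had the most neutrophil RNA. P2ry12, a microglial marker, read 10.57, 10.57, 7.40, 6.99, 6.59 and 4.76 log2 CPM. Between the MLC groups 2 of 6 tested dissociation genes and 1 of 3 tested endothelium markers also met the DEG rule upward. Downward, 1 of 4 neutrophil markers met it. With the GFPHox libraries alone 4 of 4 did (median −5.37), and with the WTHox libraries alone 0 of 4 did. The dissociation genes summed to 202, 93, 204, 116, 147 and 477 CPM in ER-Hoxb8 MLCs, led by Fos, and to between 77 and 198 CPM in bone marrow MLCs, led by Fos, Jun or Junb, with 1 at the lowest value in all but bone marrow MLC replicate 3, which had 3. The endothelium markers summed to 55.4, 90.1, 76.3, 44.8, 60.2 and 99.9 CPM in ER-Hoxb8 MLCs, led by Flt1 or Pecam1, and to between 10.8 and 28.4 CPM in bone marrow MLCs, led by Pecam1, with 1 or 2 of 5 at the lowest value. Against ER-Hoxb8 macrophages, 4 of 4 neutrophil markers met the DEG rule upward in ER-Hoxb8 MLCs (median 6.73). So did 2 of 3 endothelium, 2 of 3 astrocyte, 1 of 1 neuron and 1 of 3 oligodendrocyte markers. Downward, 1 of 3 astrocyte markers met it. The part of these markers in the ligand levels was not tested.

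Interferon genes rose with the ligands in ER-Hoxb8 MLCs. Against bone marrow MLCs, 10 of 12 interferon-stimulated genes outside the chemokines met the DEG rule upward, with a median of 3.66 log2 units beside −0.22 over all genes tested. All 4 tested interferon gamma genes did so as well (median 3.00). Mean log2 CPM of Ciita, the regulator of class II antigen presentation, was 6.50 in ER-Hoxb8 MLCs, 2.87 in bone marrow MLCs and 0.21 in microglia. Socs1, a feedback inhibitor of Janus kinases, averaged 3.39, −2.38 and −2.60 in the same order. Of 6 double-stranded RNA sensing genes 2 rose. Among 6 other CXC chemokines tested, 1 rose and 1 fell, so that list had no common direction. Gbp2 differed by 6.83 (SE 0.74), Ifih1, which encodes MDA5, by 2.65 (SE 0.24) and Cd74 by 3.17 (SE 0.51). Without replicates 3 and 6, 9 of 12 interferon-stimulated genes and 3 of 4 interferon gamma genes met the rule.

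In bone marrow MLCs, where Cxcl9 was called over bone marrow macrophages and Cxcl10 was not, 4 of 4 interferon gamma genes met the DEG rule upward (median 4.80 beside −0.01 over all genes). Of 12 interferon-stimulated genes 4 did (median 1.82), and of 6 double-stranded RNA sensing genes limma called 0, with 1 at an unadjusted p below 0.05. T cell markers rose in 1 of 7, NK cell markers in 2 of 5 and neutrophil markers in 4 of 4, and their part in the Cxcl9 result was not tested. In the macrophages the T cell markers summed to 3.42, 2.22 and 3.78 CPM, the NK cell markers to 0.918, 0.441 and 0 CPM and the neutrophil markers to 14.2, 8.57 and 2.77 CPM. Every bone marrow MLC library exceeded all of these sums. Against microglia, where Cxcl9 differed by 0.07, 4 of 4 interferon gamma genes also met the DEG rule upward in bone marrow MLCs (median 3.49). Of 12 interferon-stimulated genes 4 did so there (median 1.70).

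Markers of other brain cells and of handling also differed between bone marrow macrophages and bone marrow MLCs. Upward, 2 of 3 astrocyte, 1 of 1 neuron and 1 of 3 oligodendrocyte markers tested met the DEG rule, and downward 1 of 3 astrocyte and 1 of 3 endothelium markers and 2 of 6 dissociation genes. The astrocyte markers summed to between 8.46 and 13.6 CPM in bone marrow MLCs, led by Slc1a3 or Gfap, and to 13.2, 15.4 and 7.95 CPM in the macrophages, led by Aldh1l1. The neuron markers summed to between 0.525 and 5.15 CPM, led by Snap25 in 4 of 6 libraries, and to 0.0435, 0.0792 and 0 CPM. The oligodendrocyte markers summed to between 18.6 and 97.2 CPM and to 32.7, 48.9 and 61.6 CPM, led by Mbp in both groups. The dissociation genes summed to between 77 and 198 CPM and to 278, 371 and 321 CPM, led by Atf3 in the macrophages, and the endothelium markers to between 10.8 and 28.4 CPM and to 9.06, 20.6 and 27 CPM, led by Pecam1 in all but macrophage replicate 3. At the lowest value were 1 or 2 of 4 astrocyte markers in every library, 1 to 3 of 4 neuron markers in bone marrow MLCs and 3 or 4 in the macrophages. The part of these markers in the Cxcl9 result was not tested.

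RNA of the receptor was low to moderate in these cells. Mean log2 CPM of Cxcr3 was 3.08 in bone marrow macrophages, 1.38 in ER-Hoxb8 macrophages, 3.13 in bone marrow MLCs, 1.01 in ER-Hoxb8 MLCs and 0.11 in microglia. It exceeded microglia by 3.02 log2 units in bone marrow MLCs and met the DEG rule there. Within ER-Hoxb8 MLCs it read 0.18, −1.40, 3.81, 2.76, −2.24 and 2.98, with replicates 3, 4 and 6 high. Dpp4, which encodes the trimming protease, averaged 1.73 in bone marrow MLCs, 0.51 in ER-Hoxb8 MLCs and −0.64 in microglia. Of 2 receptor and processing genes tested between the MLC groups, limma called 0 in either direction (1 had an unadjusted p below 0.05), and both met the rule downward once replicates 3 and 6 were left out.

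In the Adar experiment, Cxcl10 separated macrophages but not progenitors by guide. Progenitors read 1.71, 2.03 and 2.04 log2 CPM with NTC and 1.76, 2.29 and 2.03 with sgRNA 1. NTC macrophages read −0.07 and −0.50 in the 2 libraries of that set, and replicate 2 read 0.03 in its own. Macrophages with sgRNA 1 read 3.93, 3.26 and 2.36. The progenitor groups overlapped, and every sgRNA 1 macrophage library was above every NTC macrophage library of the shared set.

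Cells with sgRNA 2 read 1.68, 1.27 and 1.25 log2 CPM for Cxcl10 as progenitors and 2.43, 2.36, 2.52, 2.49 and 2.93 as macrophages. Every macrophage library was above every progenitor library. This set has no NTC library to set beside them.

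Cxcl9 was low in all these cells. It was above its floor in every NTC and sgRNA 1 progenitor library, and at or under it in the macrophages of that set and in all sgRNA 2 cells. In the set with sgRNA 1 and NTC its means were −0.89 in sgRNA 1 progenitors, −1.40 in NTC progenitors, −2.64 in NTC macrophages and −2.79 in sgRNA 1 macrophages, with a gap only between progenitors and macrophages. In sgRNA 2 cells it averaged −2.83 in progenitors and −3.33 in macrophages. NTC macrophage replicate 2, in its own set, read 0.02.

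Cxcl11 read −0.59, −0.94 and −1.84 log2 CPM in sgRNA 1 macrophages and −3.43 and −2.46 in NTC macrophages. Its rise was at least 2.93-fold, since the NTC libraries were under their floor. In sgRNA 2 macrophages it read −0.91, −0.70, −1.31, −0.89 and −0.78 beside −2.72, −3.56 and −2.76 in progenitors, which were under their floor, a rise of at least 3.84-fold. Like Cxcl10 it thus stood higher in macrophages than in progenitors with sgRNA 2, without overlap. Only Cxcl10 passed the filter in either set.

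**Figure D3:**
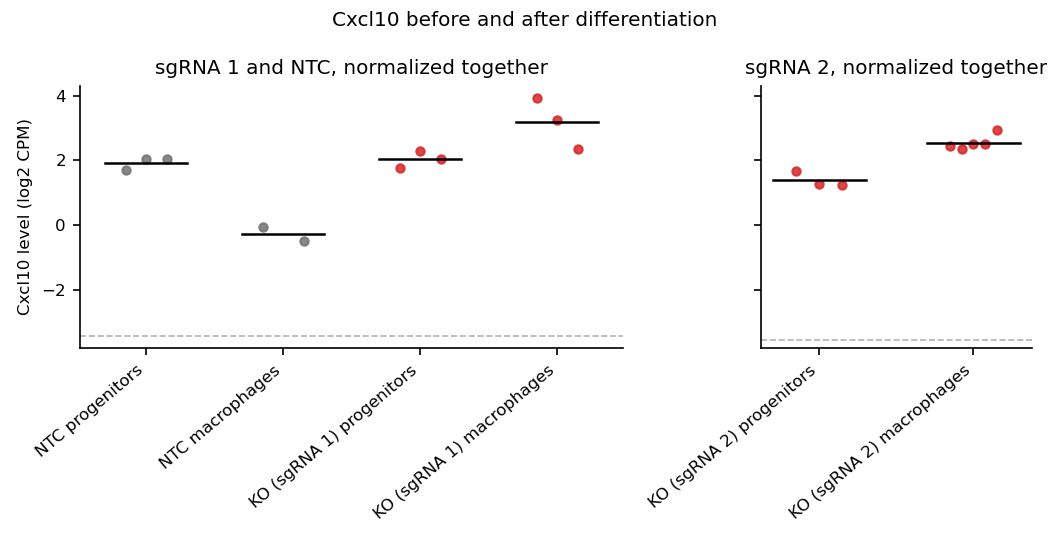
Log2 CPM of Cxcl10 in progenitors and macrophages with NTC or Adar sgRNA 1 (left) and with sgRNA 2 (right), with 1 point a library and a line at the group mean; NTC macrophage replicate 2 is not drawn. NTC macrophages average −0.28 and sgRNA 1 macrophages 3.18, with progenitors at 1.93 and 2.02.

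For Cxcl10 the order of means was sgRNA 1 macrophages at 3.18, sgRNA 1 progenitors at 2.02, NTC progenitors at 1.93 and NTC macrophages at −0.28, and only the 2 progenitor groups overlapped. In sgRNA 2 cells macrophages averaged 2.55 and progenitors 1.40, without overlap. Cxcl11 averaged −1.12 in sgRNA 1 macrophages, −1.72 in sgRNA 1 progenitors, −1.94 in NTC progenitors and −2.94 in NTC macrophages, with a gap only above NTC macrophages.

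In control cells Cxcl10 fell by 2.21 log2 units from progenitors to macrophages (SE 0.39), with 2 of 2 macrophage libraries below 3 of 3 progenitors. No p is given, since the levels that chose the gene are read against these same NTC macrophages. The DEG rule took in 1 of 1 member that passed the filter and 23.5% of 11008 genes, and nothing is read from that count. The size lay near the limit of that rule. On a log2(CPM+1) scale the change was −1.44 and the rule was not met. Without NTC macrophage replicate 3 the change was −1.99, but that leaves 1 macrophage library, so no call is read from it. In the same step 3 of 3 tested neutrophil markers fell, from sums of 101, 158 and 140 CPM to 14.9 and 10.6 CPM, led by S100a8, and 3 of 3 tested neuron markers fell, from 8.11, 14.7 and 5.39 CPM (led by Snap25) to 0 and 0.0339 CPM. The 1 T cell marker tested (sums of 3.11, 3.36 and 3.29 CPM to 0.871 and 1.15 CPM, led by Lck or Cd5) and the 1 NK cell marker tested (sums of 1.12 to 1.34 CPM, led by Nkg7, to 0.0468 and 0 CPM) fell too. Upward, 4 of 6 tested dissociation genes met the rule, with sums of 12.8, 50.2 and 72.6 CPM in progenitors, led by Junb or Fos, and 242 and 456 CPM in macrophages, led by Atf3. Further, 1 of 3 astrocyte and 1 of 3 oligodendrocyte markers tested met the rule downward, with all 3 of each at an unadjusted p below 0.05, and 7 of 7 macrophage markers met it upward (median 4.46). The astrocyte markers summed to 8.02, 10.1 and 7.48 CPM in progenitors, led by Gfap or Aldh1l1, and 6.3 and 5.52 CPM in macrophages, led by Aldh1l1, with 2 of 4 at the lowest value. The oligodendrocyte markers summed to 61.3, 82.5 and 42.9 CPM and 65 and 62.9 CPM, led by Mbp, and the macrophage markers to 329, 284 and 246 CPM, led by Cd68, and 9468 and 8356 CPM, led by Csf1r. The part of these markers in the result was not tested. With sgRNA 1 Cxcl10 went up by 1.16 over the same step (SE 0.34), short of the rule, 0 of 1 member beside 21.6% of genes. Downward, 2 of 3 neutrophil, 3 of 3 neuron and 1 of 1 NK cell markers tested met the rule there. So did 1 of 3 astrocyte and 1 of 3 oligodendrocyte markers. Upward, 3 of 6 dissociation genes, 1 of 2 endothelium and 7 of 7 macrophage markers did. With sgRNA 2 Cxcl10 went up by 1.15 (SE 0.18), also short of the rule, 0 of 1 member beside 19.3% of genes. There 3 of 5 dissociation genes and 5 of 7 macrophage markers met it upward. The part of these markers was not tested. The difference between the NTC and sgRNA 1 steps was not tested.

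Macrophages with sgRNA 1 exceeded NTC macrophages by 3.47 log2 units for Cxcl10 (SE 0.39). The DEG rule took in 1 of 1 member that passed the filter and 4.02% of genes, and nothing is read from that count. With NTC macrophage replicate 2 added as deposited it was 3.36. Progenitors with sgRNA 1 differed from NTC progenitors by 0.10 (SE 0.34), 0 of 1 member beside 0.254% of genes. These comparisons share NTC or sgRNA 1 libraries with the steps of maturation above.

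Interferon-stimulated genes were counted in the same comparisons by guide, and the difference between macrophages and progenitors was not tested. All 12 met the DEG rule upward in sgRNA 1 macrophages against NTC macrophages (median 5.64 log2 units beside 0.05 over all genes), whereas in progenitors limma called 0 of 12 (median −0.22, 2 with an unadjusted p below 0.05). Ifit1 rose 6.05 (SE 0.43), Rsad2 7.04 and Irf7 5.61. Of 6 double-stranded RNA sensing genes 3 rose, among them Ifih1, which encodes MDA5, by 2.63. The 1 interferon gamma gene tested, of 7, changed by −0.57. Cxcr3 fell by 2.34 and met the rule downward. In sgRNA 1 macrophages NK cell markers summed to 0.0402, 0.0375 and 0.086 CPM, led by Klrb1c, and T cell markers to 2.16, 1.97 and 2.25 CPM, led by Lck or Cd5, with 1 to 3 of 7 at the lowest value. In the NTC macrophages of that set the NK cell sums were 0.0468 and 0 CPM and the T cell sums 0.871 and 1.15 CPM. The 1 T cell marker tested differed by 1.16 with an unadjusted p below 0.05 and did not meet the rule. Of 3 neutrophil markers tested 1 met it upward (median 1.77, or 1.10 with genes at the floor set to their bound), and the neutrophil sums were 66.2, 81.8 and 80.1 CPM with sgRNA 1 beside 14.9 and 10.6 CPM with NTC, led by S100a8. The part of these markers in the Cxcl10 difference was not tested.

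Interferon-stimulated genes were also counted over maturation. From progenitors to macrophages 7 of 12 interferon-stimulated genes rose with NTC (median 2.68), 12 of 12 with sgRNA 1 (median 8.22, or 8.35 with genes at the floor set to their bound) and 12 of 12 with sgRNA 2 (median 8.19). With NTC 7 of them therefore rose while Cxcl10 fell. Mean log2 CPM of Ifnb1 was 1.24 in sgRNA 1 macrophages and 0.38 in sgRNA 2 macrophages.

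Under baricitinib the question was whether blocking Janus kinases changes the ligands in macrophages labelled Adar KO. NTC macrophages read −2.09, −0.37 and −1.36 log2 CPM for Cxcl10 without drug and −0.83, −0.78 and −0.03 at 0.0006 µM. At 0.016 µM they read 0.10, −0.97, −1.29 and −1.41, at 0.4 µM −1.86, −0.83, −0.70 and −1.43, and at 10 µM −0.95, 0.26 and −1.35. Controls stayed low at every dose, and their groups overlapped throughout.

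KO macrophages read 1.64, 2.77 and 2.37 log2 CPM for Cxcl10 without drug. They read 2.04, 2.71 and 2.30 at 0.0006 µM and 2.56, 2.54 and 2.54 at 0.016 µM. At 0.4 µM they read 0.01, 9.13 and 0.41, and at 10 µM 0.87, 0.65, 0.18 and −1.38. Cxcl10 was level over the low doses, lower in 2 of 3 libraries at 0.4 µM, and lower in all 4 libraries at 10 µM, where it overlapped the controls.

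**Figure D4:**
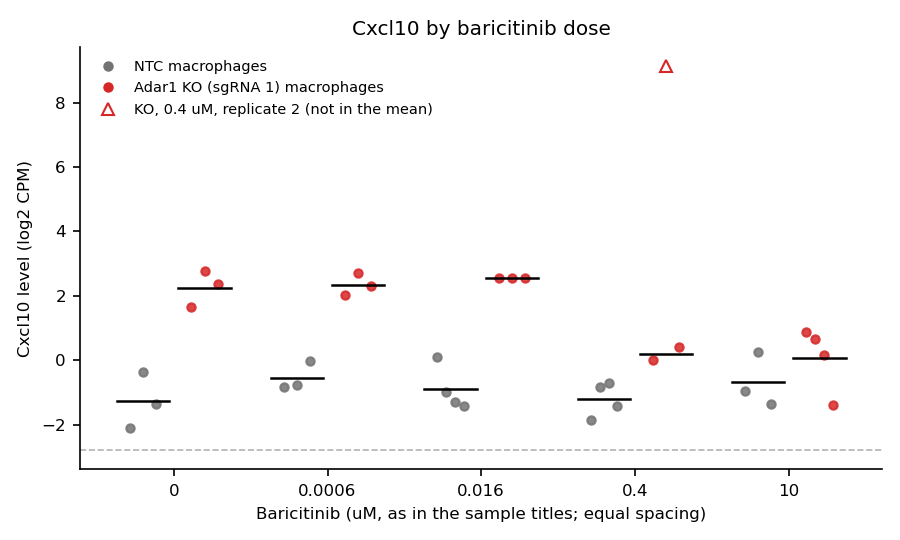
Log2 CPM of Cxcl10 by baricitinib dose in NTC macrophages (grey) and macrophages labelled Adar KO (red), with 1 point a library, a black line at each group mean and a dashed line at the lowest value; the open triangle is KO 0.4 µM replicate 2 at 9.13, which is not in its mean. KO libraries lie between 1.64 and 2.77 up to 0.016 µM and at or below 0.87 at 10 µM.

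With all libraries the KO groups came first by mean, at 3.18 (0.4 µM, with replicate 2), 2.55 (0.016 µM), 2.35 (0.0006 µM), 2.26 (no drug) and 0.08 (10 µM). The NTC groups followed at −0.55 (0.0006 µM), −0.68 (10 µM), −0.89 (0.016 µM), −1.21 (0.4 µM) and −1.27 (no drug). The KO groups up to 0.4 µM overlapped their neighbours, the KO group at 10 µM did not overlap the one above it, and all groups from there down overlapped. Without KO 0.4 µM replicate 2 the 0.4 µM group averaged 0.21 and came below drug-free KO macrophages without overlap and above the KO group at 10 µM with overlap, and the rest of the order was as before. Cxcl9 exceeded its floor in 3 of 33 libraries, and KO 0.4 µM replicate 2 was its highest. Cxcl11 exceeded its floor in 6 of 33 libraries, the highest being KO 0.4 µM replicate 2 at 5.60 and the next KO 0.0006 µM replicate 2 at 0.23. Only Cxcl10 passed the filter.

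KO exceeded NTC in Cxcl10 by 3.53 log2 units without drug (SE 1.25), where the DEG rule took in 1 of 1 member that passed the filter and 3.87% of 11152 genes. At 0.0006 µM the difference was 2.90 (SE 1.25), with 0 of 1 member and 5.00% of genes, or 1 of 1 and 5.12% without KO 0.4 µM replicate 2. At 0.016 µM it was 3.44 (SE 1.17), with 1 of 1 member and 5.12% of genes. Without that library the counts at 0 and 0.016 µM were again 1 of 1, beside 3.98% and 5.22% of genes. These values chose the gene, and nothing is read from the counts. The groups did not overlap at any of these doses.

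At 0.4 µM the difference was 4.39 (SE 1.17), with 1 of 1 member and 1.78% of genes within the rule, and its size rested on replicate 2. Without that library it was 1.41 (SE 0.56), with 0 of 1 member and 0.986% of genes, and the remaining 2 KO libraries were above all 4 controls. At 10 µM the difference was 0.76 (SE 1.17) with overlap, with 0 of 1 member and 3.14% of genes, or 0 of 1 and 3.18% without replicate 2. Replicate 2 widened the standard error of every Cxcl10 comparison of the fit: without it the SE was 0.53 at 0 and 0.0006 µM and 0.50 at 0.016 and 10 µM.

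Against drug-free KO macrophages, Cxcl10 changed by 0.09 at 0.0006 µM, with 0 of 1 member and 0.0628% of genes within the DEG rule, and by 0.29 at 0.016 µM, with 0 of 1 and 0.152%. Without KO 0.4 µM replicate 2 these counts were again 0 of 1, beside 0.0717% and 0.161% of genes. Both differences turned slightly negative without drug-free KO replicate 1, at −0.22 and −0.02. At 0.4 µM the difference was 0.92 with KO 0.4 µM replicate 2, where the rule took in 0 of 1 member and 1.93% of genes, and −2.05 without it (SE 0.59), where it took in 1 of 1 member and 4.3% of genes. At 10 µM the difference was −2.18 both with that library (SE 1.17, 0 of 1 member and 14.7% of genes) and without it (SE 0.50, 1 of 1 member and 14.7% of genes). Nothing is read from these counts. NTC macrophages changed by 0.72, 0.38, 0.07 and 0.59 from the lowest to the highest dose, with overlap each time. All dose comparisons share the drug-free libraries.

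Interferon-stimulated genes were counted at the same doses. Against NTC, KO macrophages had 12 of 12 up without drug (median 5.50 log2 units), at 0.0006 µM (median 5.56) and at 0.016 µM (median 6.46). At 0.4 µM 12 of 12 were up (median 4.17), or 2 of 12 without replicate 2 (median 1.34). At 10 µM limma called 0 of 12 (median 0.34), and 0 had an unadjusted p below 0.05. From no drug to 0.4 µM 5 of 12 fell in KO macrophages (median −2.71), while Cxcl10 differed by 0.92, or 12 of 12 without replicate 2 (median −5.61), where Cxcl10 differed by −2.05. From no drug to 10 µM 12 of 12 fell in KO macrophages (median −7.16 beside 0.05 over all genes), as did 4 of 6 double-stranded RNA sensing genes. Genes of the dissociation list moved with them, with 2 of 6 tested within the rule downward and 6 at an unadjusted p below 0.05. They summed to 422, 402 and 404 CPM without drug, led by Atf3 or Fos, and to 76.4, 96.5, 97.1 and 90.9 CPM at 10 µM, led by Fos, and their part in the result was not tested. With genes at the floor set to their bound the medians were 6.05 at 0.016 µM, 4.61 at 0.4 µM, 0.00 at 10 µM and −6.62 for the fall under 10 µM. Mean Ifit1 in KO macrophages went from 8.98 log2 CPM to 0.76, beside 1.80 in drug-free NTC macrophages. Cd74, an antigen presentation gene of the interferon gamma list, went the other way, up by 2.41 (SE 0.22). In NTC macrophages 1 of 12 interferon-stimulated genes fell from no drug to 10 µM, or 6 of 12 without KO 0.4 µM replicate 2.

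Other markers moved between KO and NTC macrophages at some of these doses. Of 2 T cell markers tested, 1 met the DEG rule upward at 0.0006 µM (median 1.78) and 1 at 0.016 µM (median 1.93), and none did at the other doses, although 1 had an unadjusted p below 0.05 without drug and at 0.4 µM. The T cell markers summed to 2.52, 2.92 and 4 CPM in KO and 2.2, 1.15 and 2.01 CPM in NTC macrophages at 0.0006 µM, and to 2.97, 3.44 and 2.84 CPM in KO and 2.6, 1.02, 0.462 and 1.82 CPM in NTC macrophages at 0.016 µM, led by Lck or Cd5 in KO macrophages, with 2 to 4 of 7 at the lowest value there. At 10 µM 2 of 6 dissociation genes met the rule downward in KO against NTC. The dissociation genes summed to 189, 217 and 213 CPM in NTC macrophages at 10 µM, led by Fos, with 1 of 7 at the lowest value. At 10 µM the 1 astrocyte marker tested also met the rule downward (−2.61, and −3.16 from no drug to 10 µM in KO macrophages), and at 0.016 µM 1 of 7 macrophage markers met it upward. The 1 neutrophil marker tested met it upward at 0.4 µM only without KO 0.4 µM replicate 2. It was then 2.15 above NTC and 2.21 above drug-free KO macrophages. Against drug-free KO macrophages 1 of 7 macrophage markers met the rule downward at 0.4 µM and at 10 µM, with or without that library. So did 1 of 6 dissociation genes at 0.4 µM, only without it. The part of these markers in the results was not tested.

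In KO 0.4 µM replicate 2, 12 of 12 interferon-stimulated genes, 5 of 6 double-stranded RNA sensing genes and 3 of 7 interferon gamma genes were above both other replicates, as were 5 of 7 dissociation genes and 5 of 7 macrophage markers. Ifit1 read 11.78 there beside 0.54 and 3.03 in the other replicates, and Adar itself 7.38 beside 4.12 and 4.21. Tnf read 6.76 beside 5.14 and 5.17. Its T cell markers summed to 7.56 CPM beside 2.87 and 2.26 CPM, led by Lck or Cd5, and its NK cell markers to 0.154 CPM beside 0.134 and 0.16 CPM. The dissociation genes summed to 562 CPM beside 262 and 242 CPM, led by Fos. The library thus stood above its group in the ligands, the interferon-stimulated genes and Adar, and above the drug-free KO macrophages in Cxcl10.

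Cxcr3 was lower in KO than in NTC macrophages at every dose: group means lay between 2.26 and 2.88 log2 CPM in NTC macrophages and between 0.68 and 1.55 in KO macrophages, without overlap at any dose. The differences were −1.27, −1.78, −1.64, −1.34 and −1.26 from no drug to 10 µM, and none was large enough for the DEG rule. Among other CXC chemokines without drug, 2 of 4 tested met the DEG rule downward in KO against NTC and 0 upward, with Cxcl16 at −2.83 and Pf4 at least 2-fold lower, at or under its floor in all 3 KO libraries. The counts were 2 of 4 downward at 0.0006 and 0.016 µM and 1 of 4 at 0.4 and 10 µM, and none upward at any dose. Against drug-free KO macrophages 2 of 4 met the rule upward at 0.4 µM (Cxcl2 by 2.16 and Cxcl14 at least 4.53-fold; the count was also 2 of 4 without replicate 2) and 2 of 4 at 10 µM (Pf4 at least 10.8-fold and Cxcl14 at least 6.7-fold), while the difference in Cxcl10 at 10 µM was −2.18. At 0.4 µM, with replicate 2, all 4 had an unadjusted p below 0.05 and 2 of them were higher in KO, Cxcl2 by 1.63 and Cxcl14 by 2.11. Between sgRNA 1 and NTC macrophages only Cxcl2 was tested, with a difference of 1.41 (SE 0.71) that did not meet the rule. The difference between Cxcl10 and these genes was not tested.

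**Figure D5:**
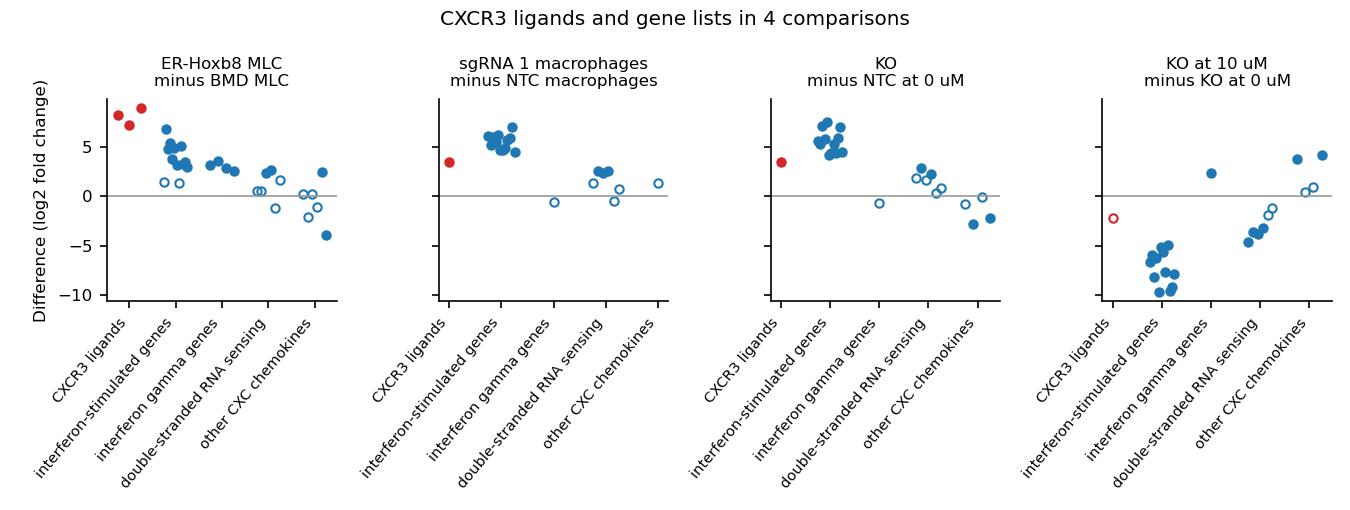
Log2 fold change of each tested gene in the lists of CXCR3 ligands, interferon-stimulated genes, interferon gamma genes, double-stranded RNA sensing and other CXC chemokines in 4 comparisons, filled where the DEG rule is met (for the CXCR3 ligands, whose levels chose them, the fill is no test). Interferon-stimulated genes have medians of 3.66 (ER-Hoxb8 MLCs against bone marrow MLCs), 5.64 (sgRNA 1 against NTC macrophages), 5.50 (KO against NTC without drug) and −7.16 (KO at 10 µM against no drug).

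The genes most like each member were read from Pearson correlations of log2 CPM, as a description, over libraries that fall into separate groups. Over the 27 libraries with brain cells and 12518 genes, Cxcl9 lay closest to Serpina3f, Gbp5 and Tgtp1 (each 0.98), Iigp1 (0.97) and Gm5970 (0.96). Cxcl10 lay closest to B2m and Serpina3i (0.96) and to Serpina3f, Cfb and Gbp5 (0.95). Cxcl11 lay closest to Gbp4, B2m and Cxcl10 (0.95), Serpina3f (0.94) and BC023105 (0.93).

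Over the 33 baricitinib libraries Cxcl10 lay closest to Sp140 (0.95) and to Igtp, Etnk1, Papd7 and Mlkl (0.94). Without KO 0.4 µM replicate 2 the nearest genes over 32 libraries were Csf1 and Ms4a6c (0.94), Gbp7 (0.93) and Rbks and Sdf4 (0.92), so the first ranking rested on that library.

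The chromosomal neighbours were read in the same comparisons. Ppef2, Naaa, Sdad1, Nup54, Scarb2, Fam47e and Art3 are the 7 protein-coding genes around or across the cluster. Between ER-Hoxb8 and bone marrow MLCs 2 of 5 tested met the DEG rule, beside 6.56% of genes (Naaa by 2.37 and Art3 by 3.94, both with overlap). Between ER-Hoxb8 MLCs and ER-Hoxb8 macrophages 1 of 5 did (Art3 by 3.95, with overlap), beside 19.3% of genes. Against microglia limma called 0 of 5 in ER-Hoxb8 MLCs, with 4 at an unadjusted p below 0.05, and 1 of 5 in bone marrow MLCs (Art3 by −3.26, with overlap). Mean log2 CPM of Art3 was 0.80 in ER-Hoxb8 MLCs, 0.12 in microglia and −3.14 in bone marrow MLCs. Art3 was at or under its floor in 5 of 6 bone marrow MLC libraries, 2 of 3 ER-Hoxb8 macrophage libraries, 2 of 6 ER-Hoxb8 MLC libraries and 1 of 9 microglia libraries, so the sizes of its differences rest on values read as not detected. Between sgRNA 1 and NTC macrophages limma called 0 of 4, with 1 at an unadjusted p below 0.05. Between KO and NTC it called 0 of 4 at every dose, with 0, 4, 3, 2 and 0 at an unadjusted p below 0.05. From progenitors to macrophages 1 of 4 met the rule with each guide, Sdad1, by −2.58 with NTC, where Cxcl10 fell too, by −3.11 with sgRNA 1 and by −3.14 with sgRNA 2, none with overlap, beside 23.5%, 21.6% and 19.3% of genes. Between monocytes and progenitors 1 of 4 did, Naaa, by 3.33, beside 6.84% of genes.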

How the data were processed

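RNA was read from 92 libraries in 25 groups, and every column of the deposited table was used (0 columns not used). The authors made the deposited values as log2 CPM with TMM scaling and a small offset. The submitters' processing notes name kallisto 0.46.0, and the study's methods name edgeR for the TMM factors. Columns were sorted into normalization sets by the minimum of each, which gave 6 sets. The 1 entry with no gene name, 0.0022 to 0.042% of a library, was left out, and 29956 genes were used.

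Depth was 6.2 M to 52.1 M estimated counts a library, which puts the floor of 3 counts at −3.23 to −0.67 log2 CPM. Groups were fitted as means, 1 fit a set, with limma 3.58.1 (trend on) in R 4.3.3, over genes above 1 CPM in at least 3 libraries (6 in the set with brain cells). P-values were adjusted with Benjamini-Hochberg over all genes of the fit. A gene was called where adjusted p was below 0.05 and the log2 fold change at least 2 in size. The members and the 16 lists were chosen with earlier results of these data known. Members have a p only in comparisons that did not choose them. The ER-Hoxb8 MLC comparisons and the step from NTC progenitors to macrophages are therefore given without p, a departure from the planned design.

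Genes named are the members, the fixed lists, the markers, 3 protein-coding neighbours on either side, and the 5 genes most correlated with each member. Genes picked out of a list as examples were chosen after their values were seen. Replicates of the same number were checked for pairing. Their deviations correlated above 0.1 in every pair only between ER-Hoxb8 days 0 and 4 and between sgRNA 1 and NTC cells. A block was used only as an alternative, so the main fits leave that pairing out. Alternatives were log2(CPM+1), no filter on low values, quantile normalization, a log2 fold change of 1 in the rule, a replicate block, leaving out each library, each series of ER-Hoxb8 MLC library names alone, microglia without replicates 8 and 9, and NTC macrophage replicate 2 added as deposited. Promoters came from RefSeq (GRCm38.p6), while the authors aligned to GRCm39, so no other coordinates are given. Tables and figures were made with Python 3.11.15, numpy 2.4.6, pandas 2.3.3 and matplotlib 3.10.9. The fit was tested on simulated data.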

Additional observations from a re-analysis of the deposited data

Results flagged for a closer look

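Cxcl11 in ER-Hoxb8 MLC replicate 4 was far from its group, at 1.08 log2 CPM where the nearest of the 6 libraries read 6.19, a gap of 0.74 of the whole range. It was the 1 library apart in 15 pairs of a ligand and a group tested, over 7 groups of 4 to 10 libraries, and chance alone picks out about 1 in 20 pairs. Replicate 4 was also the lowest of its group for Cxcl9 and Cxcl10.

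Cxcl10 went opposite ways from progenitor to macrophage with the guide. It changed by 1.16 log2 units with sgRNA 1, every macrophage library above every progenitor library, and by −2.21 with NTC, every macrophage library below. The difference between these steps was not tested.

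NTC macrophage replicate 2, which has a normalization set of its own and entered the comparisons only as an alternative, read 0.897 CPM for Cxcl9, where the highest other NTC macrophage of that experiment read 0.0853 CPM. For Cxcl10 it read 0.903 CPM beside 0.861 CPM. It is the only library of its set, so these levels are side by side and not on a shared scale.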

How the results depend on the processing

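Over 39 member fold changes and 532 alternatives, 504 stayed on the same side of the threshold or within the spread between replicates, 1 grew weaker, 1 grew stronger, 10 moved beyond that spread and 16 changed direction in a tested comparison that passed no threshold. Some alternative changed the sign of 9 of the 39. Among the tested comparisons, Cxcl9 between bone marrow MLCs and microglia turned from 0.07 to −0.07 on the log2(CPM+1) scale, −0.30 under quantile normalization and −0.61 without the microglia replicates 8 and 9, and ran from −0.24 to 0.39 leaving out 1 library. Cxcl10 there was −0.19 under quantile normalization and ran from −0.06 to 0.46. Cxcl10 from day 0 to day 4 ran from −2.03 to 0.26. The cause was not tested. On the log2(CPM+1) scale, which shrinks changes near 0, Cxcl9 between bone marrow MLCs and macrophages was 1.56 (weaker), Cxcl10 and Cxcl11 between the MLC groups were 7.16 and 5.74, and Cxcl10 between sgRNA 1 and NTC macrophages was 2.54. On that scale ER-Hoxb8 MLCs also exceeded ER-Hoxb8 macrophages by 9.79, 7.72 and 6.12 and microglia by 7.23 for Cxcl10. Under quantile normalization Cxcl10 in sgRNA 2 cells rose 0.80 from progenitor to macrophage, and the cause was not tested. Leaving out 1 library at a time, Cxcl10 at 0.4 µM against no drug in KO macrophages ran from −2.05 to 2.51, decided by KO 0.4 µM replicate 2, and KO against NTC at 0.4 µM from 1.41 to 5.97. Cxcl10 on day 0 of ER-Hoxb8 cells against progenitors became stronger without day 0 replicate 2 (2.74) and was 0.45 without day 0 replicate 3. Leaving out ER-Hoxb8 MLC replicates 3 and 6 together was chosen after seeing the data.

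With a replicate block, which assumes paired replicates, Cxcl9 between bone marrow MLCs and macrophages was 4.79 and between bone marrow MLCs and microglia −0.61, and Cxcl10 was −0.89 from day 0 to day 4 and 0.10 between progenitors with sgRNA 1 and NTC. In those Cxcl10 comparisons every replicate number occurs in both groups. The block could therefore not move the difference, only its SE and p, which are not given.

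Counts of genes called stayed within 1.5 times in 254 of 307 alternatives over 23 comparisons. The looser rule raised them, from 825 to 1541 for monocytes against progenitors, from 821 to 1540 between the MLC groups and from 442 to 1159 between sgRNA 1 and NTC macrophages. On the log2(CPM+1) scale those between the MLC groups fell to 447. The count from day 0 to day 4 went from 0 to 738 without day 0 replicate 2. KO against NTC at 0.4 µM went from 199 to between 110 and 619. Depth limits Cxcl9 and Cxcl11 most, since both were at their floor in most baricitinib libraries.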
